A study of Arabidopsis thaliana with 44 samples.

Results

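Whole seedlings of the Arabidopsis thaliana mutant tpst-1 that had been on the peptide PSY5 for 24 h were compared with whole tpst-1 seedlings that had been on PSY5 for 6 h. The libraries were chosen by their labels: 3 seedling libraries of the 24 h group and 3 of the 6 h group, 6 of 15 seedling libraries and 6 of 44 in the series. Both groups carried the same genotype, tpst-1, both received PSY5 at 1 uM, and both are labelled as 7 days old, so that neither is an untreated control. Seedling libraries without time on the peptide (0 h) and after 2 h and 7 d, 3 each, were fitted together with them and are given as surroundings. They too were tpst-1 and are labelled as 7 days old, and the 2 h and 7 d groups received PSY5 at 1 uM. By these labels the 7 d seedlings were no older than the 24 h seedlings, so 7 d is not a later age of the same plants. The labels hold no mock-treated seedlings at 6 h or 24 h, and the hour of harvest and the light regime were not given in the sources used here. Time on the peptide, age and time of day therefore cannot be told apart in any value below.

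TPST is the sulfotransferase that adds sulfate to tyrosines of small secreted peptides, among them the PSY, PSK, RGF and CIF families, and the tpst-1 mutation removes that activity. A plant without it makes no sulfated peptide of its own, so a synthetic sulfated peptide can be supplied from outside. PSY peptides are read by the leucine-rich repeat receptor kinases PSYR1, PSYR2 and PSYR3, which are known from Arabidopsis to promote stress-response genes and to be held back when the peptide binds. TPST transcripts stood at 2.93, 2.81 and 2.4 TPM (transcript abundance scaled for gene length and library size) in the 24 h libraries and at 2.54, 2.95 and 1.36 TPM in the 6 h libraries. The groups overlapped, with a log2 fold change (24 h over 6 h, here and in all that follows) of 0.24 ± 0.25 (SE) and an adjusted p of 0.768. The position of the mutation in the transcript was not given in the sources used here, so this level is no check of the genotype. PSYR1 had 4.4, 3.27 and 3.17 TPM at 24 h, against 3.19, 3.46 and 2.78 TPM at 6 h (0.20 ± 0.17, adjusted p = 0.694). PSYR2 and PSYR3 could not be found by symbol in the sources used here, so no values are given for them. None of the 19 tested members of the sulfated peptide pathway (peptide precursors, receptors and TPST) was called.

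Read totals were 9878853 to 13130715 in the 24 h libraries and 11724957 to 12998617 in the 6 h libraries. In a principal component analysis of the 15 seedling libraries the 0 h libraries stood apart on the first component (23% of the variance) and the 7 d libraries on the second (12.1%). Those of 2 h, 6 h and 24 h lay close together on the first. On the second the 24 h libraries (2.915 to 4.646) did not overlap the 6 h libraries (9.757 to 15.37). The 24 h replicate 2 had the highest share of reads on chloroplast genes of the 6 (2.309%, against 1.092 to 2.162% in the other 5). Nothing in the labels says whether replicates came from separate cultures, and 2 pairs of library kit and instrument are named without saying which libraries each made, so p-values measure the spread between these libraries, which may be technical. In whole seedlings, fewer cells of a type and less RNA per cell cannot be told apart.

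Between 6 h and 24 h few genes passed the test, and most of those that did changed by less than 2-fold. Of 21069 genes tested with the quasi-likelihood F test of edgeR, 389 (1.85%) passed at a Benjamini-Hochberg adjusted p below 0.05, and these are the genes called here. They divided into 162 higher (0.769%) and 227 lower (1.08%) at 24 h. Only 33 of the higher and 48 of the lower genes changed more than 2-fold, and the median size of a called change was 0.59 on the log2 scale. Before adjustment 2722 genes had a p below 0.05 by the same F test. Of simulated 1.5-fold changes 37.3% were recovered, so the number of calls is no count of all genes that changed. In 364 of the 389 the TPM values of the groups did not overlap, against 14.5% of all tested genes (6.79% higher and 7.67% lower). By the same test 3046 genes (14.5%; 5.89% higher, 8.56% lower) differed between 6 h and 0 h, and 2964 (14.1%; 5.43% higher, 8.63% lower) between 24 h and 0 h. Between 2 h and 0 h 2641 genes differed (12.5%; 4.53% higher, 8.01% lower), and between 7 d and 24 h 2056 (9.76%; 5.16% higher, 4.6% lower). The change from 6 h to 24 h and the change from 0 h to 2 h share no library, and their difference passed for 2180 genes (10.3%; 6.24% positive, 4.11% negative).

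**Figure D1:**
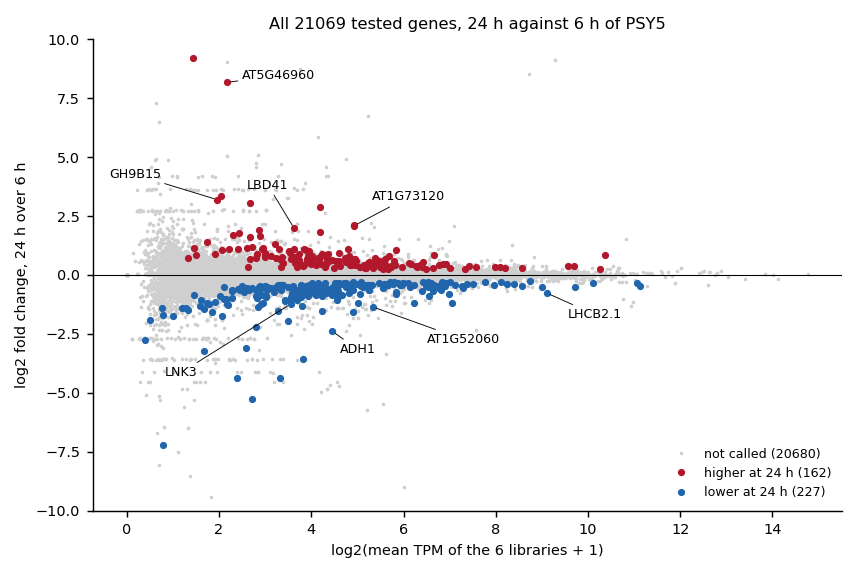
Log2 fold change of 24 h over 6 h (vertical axis) against the log2 of the mean TPM of the 6 libraries plus 1 (horizontal axis) for the 21069 tested genes, with the 162 genes called higher in red and the 227 called lower in blue. Most called genes lie within 1 log2 unit of 0, and the outermost points at low TPM are genes with few or no reads in 1 group, whose fitted fold change is not a measured size.

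The number of calls depended on single libraries and on the test. Without 6 h replicate 1 there were 159 calls, without 6 h replicate 3 there were 211, without 24 h replicate 1 there were 213, and without 24 h replicate 2 there were 228. limma on log2(TPM + 1) called 89 genes, of which 81 were among the 389, and DESeq2 called 578. A core of 52 genes, 18 higher and 34 lower, was called under each of 11 other settings and without each of the 6 libraries. In the following, a gene is described as stable where its call held without each of the 6 libraries, and otherwise the highest adjusted p with 1 library left out is given. The word does not cover the 11 other settings, and several stable genes, CCA1 and ADH1 among them, were not called by limma on log2(TPM + 1).

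The clearest group was the circadian clock. The plant clock is a loop of transcription factors in which the morning proteins CCA1 and LHY hold back evening genes such as TOC1, GI and ELF4, and evening proteins hold back the morning genes in turn. Transcript levels of its members rise and fall each day, and in seedlings they feed into growth, photosynthesis and flowering. Of 20 tested genes of the morning-phased list, 8 were lower at 24 h and none higher, against 1.08% and 0.769% of all tested genes. The median over the list was -0.62 on the log2 scale, against 0.006 over all genes. Of 17 tested evening-phased genes, 2 were higher and none lower, with a median of 0.29.

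For the clock gene with the largest fall the 250 bases before the start of the gene are shown, because letters known as a binding site of clock and light factors can be read in them. LNK3 (AT3G12320) lies on the plus strand and its window is chr3:3923265-3923514. It is RefSeq sequence of assembly TAIR10.1, written 5′ to 3′ on the gene's strand. Capitals mark G-boxes (CACGTG).

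LNK3: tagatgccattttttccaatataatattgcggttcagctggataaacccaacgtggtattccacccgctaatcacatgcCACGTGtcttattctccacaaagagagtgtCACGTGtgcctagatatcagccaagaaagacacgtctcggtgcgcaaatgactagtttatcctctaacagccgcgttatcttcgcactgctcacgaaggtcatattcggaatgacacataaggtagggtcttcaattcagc

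The LNK3 window held G-boxes at positions -171 and -141, counted back from the start of the gene, and no evening element. The evening element (AAATATCT) was found on either strand in 58.8% of the 17 evening-phased and 10% of the 20 morning-phased promoters, against 4.74% of 20832 promoters of tested genes. It stood in 13.0% of the promoters of genes called higher and 6.17% of those called lower. The G-box was found in 40% of the morning-phased and 11.8% of the evening-phased promoters, against 6.87% of all. It stood in 7.41% of promoters of genes called higher and 12.3% of those called lower. The related CCA1-binding site (AAAAATCT) was in 6.79% of promoters of genes called higher, 6.17% of those called lower and 6.55% of all. These are counts of letters in a window and not of occupied sites.

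The core morning factors were both lower at 24 h. LHY, a MYB-like repressor of evening genes, had 26.3, 18.7 and 25.2 TPM at 24 h, against 42.2, 36.7 and 45.9 TPM at 6 h. Its 2 groups did not overlap (-0.82 ± 0.12, edgeR adjusted p = 0.000606, stable). CCA1, its close relative, had 11.4, 5.87 and 12.1 TPM at 24 h and 16.4, 19.4 and 19.8 TPM at 6 h. These groups did not overlap either (-0.89 ± 0.16, adjusted p = 0.00528, stable), and 24 h replicate 2 was the lowest library for both genes. The same library had the lowest summed TPM of the morning-phased list (166, against 218 and 204 in the other 24 h libraries and 271 to 289 in the 6 h libraries). Without it 6 members of the list were called lower and the list's median was -0.49.

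The LNK genes, which encode coactivators that work with the RVE relatives of CCA1, fell with them. LNK3 had 7.52, 5.47 and 5.87 TPM at 24 h, against 14.9, 15.3 and 15.5 TPM at 6 h. Every 24 h library thus lay far below every 6 h library (-1.23 ± 0.17, adjusted p = 0.000595, stable). LNK3 overlaps AT3G12340 on the opposite strand, and whether counting used strand was not given in the sources used here. The same holds for LNK2, COL2, NAC102, ATAF1, ADH1, PAP17, RCA, CAO, UPM1, RAB18 and GH9B15, which overlap a gene on the opposite strand. LNK4 overlaps AT5G06990 and FER4 overlaps AT2G40290 on the same strand. LNK2 fell by 0.83 ± 0.13 (adjusted p = 0.00107, stable) and LNK4 by 0.94 ± 0.17 (adjusted p = 0.00480, stable). LNK1 was measured at -0.38 ± 0.14 and was not called (adjusted p = 0.235).

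CDF3, a DOF repressor of flowering genes that peaks in the morning, had 8.02, 6.90 and 9.60 TPM at 24 h and 14.6, 12.1 and 14.7 TPM at 6 h. The groups were apart (-0.76 ± 0.12, adjusted p = 0.00250, stable). The CONSTANS relatives COL1 (-0.54 ± 0.11, adjusted p = 0.0123) and COL2 (-0.69 ± 0.17, adjusted p = 0.0400) were called lower as well. Their calls were less steady, since COL1 reached an adjusted p of 0.0661 and COL2 of 0.203 without 24 h replicate 2. COL1 overlaps AT5G15845 on the opposite strand, which was called lower too (-0.48, adjusted p = 0.0340). RVE8, the activator that partners the LNK proteins, stood just outside the threshold (-0.63 ± 0.16, adjusted p = 0.0504). PRR9 (-0.75 ± 0.26, adjusted p = 0.173), CDF1 (-0.77 ± 0.25, adjusted p = 0.137) and CDF2 (-0.61 ± 0.21, adjusted p = 0.173) had estimates of similar size with wider errors. PRR7, RVE4 and RVE2 had estimates of -0.16, -0.18 and 0.28.

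On the evening side COR27 (AT5G42900), a cold- and clock-regulated repressor that acts on PRR5 and TOC1, had 17.8, 16.5 and 11.7 TPM at 24 h, against 5.69, 7.77 and 8.53 TPM at 6 h. The groups did not overlap (1.1 ± 0.24, adjusted p = 0.0158), although the adjusted p reached 0.111 without 6 h replicate 1 and was above the threshold without 24 h replicates 1 (0.0720) and 2 (0.0804). PRR3, a pseudo-response regulator that stabilises TOC1, had 7.99, 6.40 and 7.74 TPM at 24 h and 5.03, 4.77 and 3.90 TPM at 6 h (0.70 ± 0.18, adjusted p = 0.0449). Its call was lost without any one of the 6 libraries, up to an adjusted p of 0.194 without 6 h replicate 3. The members of the evening complex were not called: ELF4 stood at 0.52 ± 0.16 (adjusted p = 0.0989), ELF3 at 0.28 ± 0.08 (adjusted p = 0.0989) and LUX at 0.29 ± 0.13 (adjusted p = 0.314). GI (0.46 ± 0.16), FKF1 (0.72 ± 0.29) and TOC1 (0.25 ± 0.09) likewise had positive estimates without passing. In all, 14 of the 17 evening-phased genes had a positive estimate and 17 of the 20 morning-phased genes a negative one.

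**Figure D2:**
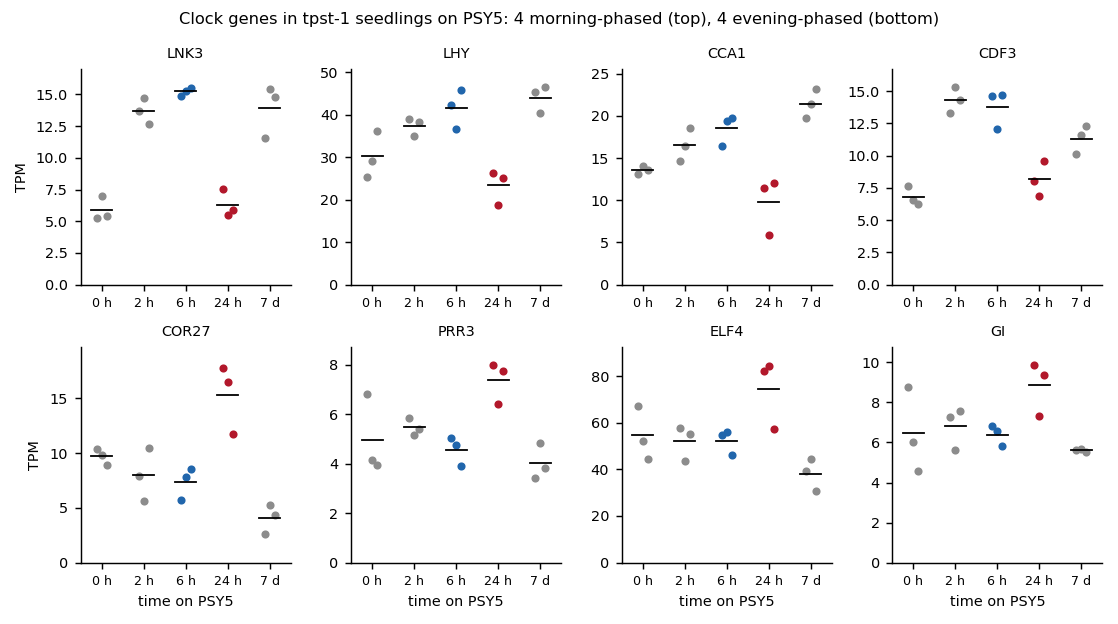
TPM of 4 morning-phased clock genes (top row) and 4 evening-phased clock genes (bottom row) in each seedling library (points) with the group mean (bar), ordered by time on the peptide, with 6 h in blue and 24 h in red. For LHY, CCA1, LNK3 and CDF3 all 24 h points lie below all 6 h points, and the ordering is the opposite for COR27 and PRR3.

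Across the seedling groups the morning genes did not differ in 1 direction. LNK3 was higher at 6 h than at 0 h (1.23, adjusted p = 2.38e-05), stood at the 0 h level at 24 h (0.00 against 0 h, adjusted p = 0.999) and was higher in the 7 d group than at 24 h (1.18, adjusted p = 0.000111). The comparisons of 6 h and of 24 h with 0 h share libraries with the one of 24 h and 6 h, so these values only stand beside each other. The list's median was 0.31 at 6 h against 0 h, -0.23 at 24 h against 0 h and 0.79 at 7 d against 24 h. Between 24 h and 7 d, 15 of its 20 members were called higher and none lower, against 5.16% and 4.6% of all tested genes. Over the same step 10 of the 17 evening genes were called lower and none higher. LHY at 7 d had 45.3, 40.3 and 46.4 TPM, close to its level at 6 h.

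Genes of light signalling and light harvesting were lower in small number. The median of 19 tested light-signalling genes was -0.07, against 0.006 over all genes, and 8 had positive estimates. Of the 19, 4 were called lower and none higher, against 1.08% and 0.769% of all tested genes. They were the photoprotective proteins ELIP1 (73, 66.0 and 85.9 TPM at 24 h, against 118, 106 and 139 TPM at 6 h; -0.69 ± 0.15, adjusted p = 0.0174) and ELIP2 (-0.94 ± 0.23, adjusted p = 0.0400), the HY5 relative HYH (-0.44 ± 0.10, adjusted p = 0.0224) and the UV-B feedback regulator RUP2 (-0.65 ± 0.15, adjusted p = 0.0271). None of the 4 was stable: without 24 h replicate 2 the adjusted p was 0.0944 for ELIP1 and 0.147 for HYH, without 6 h replicate 1 it was 0.215 for ELIP2, and without 6 h replicate 3 it was 0.129 for RUP2. The groups did not overlap for any of them, as in 364 of the 389 called genes and in 14.5% of all tested genes.

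Photosynthesis genes encoded in the nucleus were mostly level. Only 2 of 43 were called, both lower, against 1.08% of all tested genes called lower, and the median was -0.03. LHCB2.1, which encodes a light-harvesting protein of photosystem II, had 399, 270 and 551 TPM at 24 h, against 676, 635 and 759 TPM at 6 h. The 24 h libraries were widely spread but all below the 6 h libraries (-0.76 ± 0.15, adjusted p = 0.00668, stable). RCA, the activase of rubisco, was at -0.32 ± 0.08 (adjusted p = 0.0484, and 0.202 without 24 h replicate 1). Without 24 h replicate 3 as many as 10 of the photosynthesis genes were called lower. In chlorophyll synthesis CHLH, a subunit of magnesium chelatase (-0.43 ± 0.10, adjusted p = 0.0193), and CAO, which makes chlorophyll b (-0.43 ± 0.11, adjusted p = 0.0403), were the 2 of 15 called, both lower. Neither was stable, with an adjusted p of 0.123 for CHLH and of 0.208 for CAO without 24 h replicate 2. The share called lower over all tested genes was 1.08%.

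The list of stress-response transcription factors, the longest of the 39, held the largest number of genes called higher. Of 49 tested, 8 were higher and 1 lower at 24 h, against 0.769% and 1.08% of all tested genes. Estimates were positive for 32 of the 49 and negative for 17, with a median of 0.22. These factors, mostly of the ERF, NAC, WRKY and zinc finger families, are induced within minutes by wounding, touch, cold or pathogens. ERF105, an ethylene response factor linked to cold and osmotic stress, had 9.57, 8.35 and 11.1 TPM at 24 h, against 2.32, 2.68 and 4.2 TPM at 6 h. The lowest 24 h library was well above the highest 6 h library (1.66 ± 0.21, adjusted p = 0.000246, stable). ERF105 overlaps AT5G51180 on the opposite strand. ERF104, an immune and stress regulator released from a MAP kinase complex, had 13.6, 13.5 and 14.9 TPM at 24 h and 5.69, 7.55 and 7.28 TPM at 6 h (1.04 ± 0.16, adjusted p = 0.00100, stable). The NAC factors NAC102 (0.61 ± 0.11, adjusted p = 0.00558, stable) and ATAF1 (0.51 ± 0.10, adjusted p = 0.00914) rose by less, and ATAF1 missed the threshold without 24 h replicate 1 (0.0677). The other calls, named after their values were seen, were ZAT10 (0.79), NAC032 (0.91), ERF6 (1.09) and ATAF2 (0.47), all higher, and WRKY53 (-0.63), lower. Each of these 5 lost its call in at least 2 of the 6 fits with 1 library left out. With 1 library left out, 5 or 6 members of the list were called higher.

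At 24 h the list as a whole nevertheless stood far below its level at 0 h, while NAC102 (-0.83 against 0 h) and ATAF1 (-0.68) were less far below. ERF105 had 53.0, 68.9 and 58.0 TPM at 0 h, and the log2 fold change against 0 h was -4.34 at 6 h and -2.68 at 24 h. The list's median was -1.72 at 6 h against 0 h, with 37 members called lower and none higher. It was -1.6 at 24 h against 0 h, with 38 called lower and none higher. Of all tested genes 8.56% were called lower at 6 h against 0 h and 8.63% at 24 h against 0 h. The rises from 6 h to 24 h therefore went over a low base that had been reached by 2 h, when ERF105 stood at 2.23, 3.53 and 2.31 TPM. Summed over the list, TPM was 508 to 529 at 24 h and 410 to 455 at 6 h, against 1490 to 1580 at 0 h.

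The hypoxia list moved in both directions. These genes respond to low oxygen through the group VII ERF factors and serve fermentation and its control. LBD41, a LOB-domain repressor that is among the most steadily induced hypoxia genes, had 12, 15.5 and 27.0 TPM at 24 h, against 4.41, 4.89 and 4.29 TPM at 6 h. Every 24 h library lay at more than 2-fold the 6 h level (1.98 ± 0.30, adjusted p = 0.00101, stable). HRA1, a trihelix protein that damps the hypoxia response, had 4.60, 8.23 and 17.2 TPM at 24 h and 2.25, 2.67 and 2.90 TPM at 6 h (1.92 ± 0.40, adjusted p = 0.0127). It lost its call without 24 h replicate 3 (0.0771), 6 h replicate 1 (0.0782) or 6 h replicate 3 (0.0508), and replicate 3 had the highest and replicate 1 the lowest 24 h level of both genes.

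ADH1, the alcohol dehydrogenase of ethanol fermentation, went the other way. It had 5.54, 5.64 and 9.11 TPM at 24 h, against 36.7, 32.1 and 36.3 TPM at 6 h. The groups were far apart (-2.38 ± 0.43, adjusted p = 0.00516, stable), and among called members of the lists only RAB18, described further on, had a more negative estimate. Sucrose synthase SUS1 fell as well, by 0.34 ± 0.09 (adjusted p = 0.0449, and 0.242 without 6 h replicate 1). The share called over all tested genes was 1.85%. The other 12 members of the hypoxia list were not called, and the median of the 16 was 0.19. At 0 h the same genes had been far higher: LBD41 stood at 376, 369 and 357 TPM and HRA1 at 248, 237 and 228 TPM. All 16 were lower at 6 h than at 0 h and all 16 were lower at 24 h than at 0 h, with medians of -3.10 and -3.33. Of all tested genes 8.56% and 8.63% were called lower in these comparisons. LBD41 was higher at 7 d than at 24 h (1.80, adjusted p = 3.74e-05), while ADH1 at 7 d was spread from 3.44 to 29.2 TPM.

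AT4G10265, described in RefSeq as a wound-responsive family protein, had a time course like that of LBD41. It had 1.56, 6.93 and 8.51 TPM at 24 h and 0, 0.766 and 0.839 TPM at 6 h, after 164, 174 and 168 TPM at 0 h. The rise was 3.36 ± 0.75 (adjusted p = 0.0194) on 82 reads at 24 h and 8 at 6 h, and it reached an adjusted p of 0.117 without 6 h replicate 1. AT4G05775, a noncoding RNA gene that overlaps AT4G10270 on the opposite strand, rose by 1.81 ± 0.37 (adjusted p = 0.0108, and 0.0724 without 6 h replicate 1). Its partner AT4G10270 had an estimate of 1.25, and reads of the 2 genes cannot be told apart without strand. CML38, a calmodulin-like protein of the touch and hypoxia response, had 10.5, 9.98 and 15.3 TPM at 24 h, against 4.55, 5.79 and 3.71 TPM at 6 h. It rose by 1.3 ± 0.30 (adjusted p = 0.0231, and 0.117 without 6 h replicate 3), the only call among 23 tested genes of immunity and touch.

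**Figure D3:**
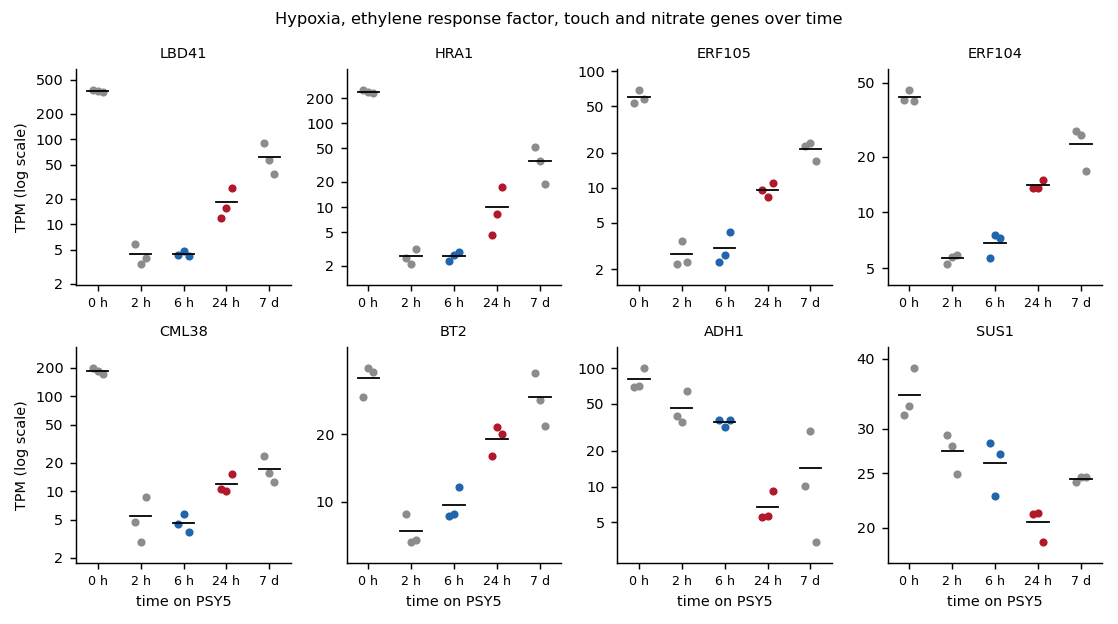
TPM on a log scale of 8 genes in each seedling library (points) with the group mean (bar), ordered by time on the peptide, with 6 h in blue and 24 h in red. LBD41, HRA1, ERF105, ERF104, CML38 and BT2 are higher at 24 h than at 6 h and still below 0 h, while ADH1 and SUS1 are lower at 24 h than at 6 h.

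Genes that answer to carbon and nitrogen supply gave few but partly large changes. SEN1, a gene induced by darkness and sugar starvation, had 6.67, 4.21 and 7.09 TPM at 24 h, against 1.78, 2.14 and 1.70 TPM at 6 h. It rose by 1.68 ± 0.31 (adjusted p = 0.00516, stable). At 0 h it had 5.29 to 6.36 TPM, and its estimate for 24 h against 0 h was -0.07 (adjusted p = 0.915). It was the only call among 21 sugar starvation genes, whose median was 0.05. BT2, a BTB and TAZ domain protein that answers to nitrate, sugar and the clock, had 16.0, 21.4 and 19.9 TPM at 24 h and 8.65, 8.86 and 11.6 TPM at 6 h. It rose by 1.01 ± 0.17 (adjusted p = 0.00331, stable). LBD37, a repressor of nitrate genes, had 57.6, 57.9 and 57.1 TPM at 24 h and 43.6, 45.9 and 48.7 TPM at 6 h, a small rise of 0.33 ± 0.07 (adjusted p = 0.0177, and 0.113 without 6 h replicate 1). With UPM1, an enzyme of siroheme synthesis (0.25 ± 0.06, adjusted p = 0.0382, and 0.202 without 24 h replicate 3), they were the 3 calls among 22 nitrate genes, all higher, with a list median of -0.03. The share called higher over all tested genes was 0.769%.

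In starch turnover the alpha-amylase AMY3 (0.43 ± 0.09, adjusted p = 0.0134) and the disproportionating enzyme DPE1 (0.32 ± 0.08, adjusted p = 0.0493) were higher, 2 of 17 genes. Neither was stable, with 0.0663 for AMY3 without 24 h replicate 3 and 0.166 for DPE1 without 24 h replicate 1. The share called higher over all tested genes was 0.769%. The chlorophyll b reductase NYC1, which starts chlorophyll breakdown, rose by 0.42 ± 0.09 (adjusted p = 0.0224, and 0.119 without 24 h replicate 2). It was the single call of 7 tested senescence genes, while the other 6 had negative estimates.

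The mineral nutrition lists below held 1 or 2 calls each, where 1.85% of all tested genes were called. PAP17, an acid phosphatase induced by phosphate shortage and ageing, had 7.62, 5.91 and 5.39 TPM at 24 h, against 14.5, 9.99 and 15.5 TPM at 6 h (-1.07 ± 0.19, adjusted p = 0.00480, stable). It was 1 of 14 phosphate genes. The phloem transporter OPT3 was the only one of 20 iron deficiency genes called (-0.44 ± 0.09, adjusted p = 0.00970, and 0.0692 without 24 h replicate 1), and the plastid ferritin FER4 the only one of 8 iron storage genes (0.36 ± 0.09, adjusted p = 0.0400, and 0.196 without 24 h replicate 1). The copper transporter COPT2, the only call among 11 copper genes, fell by 0.91 ± 0.23 (adjusted p = 0.0406, and 0.156 without 24 h replicate 3). Of 19 sulfur genes, the sulfate transporter SULTR2;1 (-0.44 ± 0.09, adjusted p = 0.0134) and the reductase APR2 (-0.31 ± 0.06, adjusted p = 0.0145) were lower. They had 0.0915 without 24 h replicate 1 and 0.0818 without 6 h replicate 1 as their highest adjusted p. APR2 overlaps AT1G08477, which was called lower too (-0.36).

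Defence and detoxification genes also divided. Tau-class glutathione transferases, which couple glutathione to toxic compounds, were higher: GSTU1 (10.8, 5.12 and 4.83 TPM at 24 h, against 1.82, 2.34 and 1.72 TPM at 6 h; 1.77 ± 0.39, adjusted p = 0.0187), GSTU8 (1.07 ± 0.21, adjusted p = 0.00842) and GSTU19 (0.30 ± 0.07, adjusted p = 0.0160). GSTF6, of the phi class, was lower (-0.34 ± 0.08, adjusted p = 0.0245). Without 24 h replicate 1, the library highest in GSTU1 and GSTU8, the adjusted p was 0.151 for GSTU1, 0.0720 for GSTU8 and 0.0784 for GSTU19, and without 6 h replicate 3 it was 0.164 for GSTF6. These were the 4 calls among 23 genes of oxidative stress and detoxification (median 0.29), against 1.85% of all tested genes called. By RefSeq description 13 tau-class genes were tested and the other 10 were not called.

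PR5, a thaumatin-like marker of salicylic acid signalling, had 21.3, 21.0 and 22.8 TPM at 24 h, against 33.0, 28.9 and 34.3 TPM at 6 h (-0.57 ± 0.09, adjusted p = 0.00142, stable). It was the single call among 22 salicylic acid genes, of which 15 had a negative estimate (median -0.16). None of 29 jasmonate and wound genes was called (median 0.15). In the indolic branch of glucosinolate and camalexin synthesis CYP79B2, which turns tryptophan into its aldoxime (0.42 ± 0.10, adjusted p = 0.0221), and GSTF9 (0.27 ± 0.06, adjusted p = 0.0280) were higher, and PAD3, the last enzyme of camalexin synthesis, was lower (-0.58 ± 0.14, adjusted p = 0.0357). Left-out libraries raised these to 0.151 (CYP79B2, without 24 h replicate 1), 0.214 (GSTF9, without 6 h replicate 1) and 0.184 (PAD3, without 24 h replicate 1). The indolic list had 17 tested genes, and 1.85% of all tested genes were called. None of 23 aliphatic glucosinolate genes was called, although 17 had positive estimates (median 0.17).

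Among 13 tested heat shock genes 2 were called, both higher, against 0.769% of all tested genes called higher. HSP70 (AT3G12580) had 16.9, 17.2 and 19.1 TPM at 24 h, against 12.6, 11 and 12 TPM at 6 h (0.58 ± 0.10, adjusted p = 0.00510, stable). HSP90.1 rose by 0.51 ± 0.13 (adjusted p = 0.0478, and 0.255 without 24 h replicate 2). The median of the list was 0.31, and it was 0.07 without 6 h replicate 1, 0.17 without 6 h replicate 2 and 0.12 with limma on log2(TPM + 1), while 4 of the 13 genes had negative estimates. All 8 genes of folding in the endoplasmic reticulum had negative estimates and none was called (median -0.15).

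Growth genes were nearly level. Of 38 cell division genes 3 were called, all lower: the mitotic cyclin CYCB1;4 (4.55, 4.35 and 4.43 TPM at 24 h, against 6.11, 6.82 and 7.10 TPM at 6 h; -0.57 ± 0.13, adjusted p = 0.0245), the anaphase activator CDC20.1 (-0.36 ± 0.09, adjusted p = 0.0308) and the cytokinesis kinesin HINKEL (-0.43 ± 0.11, adjusted p = 0.0378). A negative estimate was found for 31 of the 38 (median -0.14). Over all tested genes 1.08% were called lower and 0.769% higher. No call of the 3 was stable: without 24 h replicate 1 the adjusted p of CYCB1;4 was 0.104, without 6 h replicate 1 that of CDC20.1 was 0.188, and without 24 h replicate 2 that of HINKEL was 0.182. Of 47 expansion and wall-loosening genes EXPA16, an alpha-expansin, was higher (1.15 ± 0.25, adjusted p = 0.0174, and 0.106 without 6 h replicate 1) and the plasma membrane aquaporin PIP2;1 lower. PIP2;1 had 286, 230 and 266 TPM at 24 h and 330, 324 and 365 TPM at 6 h (-0.38 ± 0.06, adjusted p = 0.00233, stable).

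No call was made among 12 ribosome biogenesis genes, 20 cytokinin genes, 12 gibberellin and brassinosteroid genes and 10 reference genes, whose median was -0.03. Among 20 auxin genes the tryptophan aminotransferase TAA1, which starts auxin synthesis, was called just inside the threshold (0.45 ± 0.12), and its adjusted p was 0.241 without 6 h replicate 3. Of 24 flavonoid genes F3H was called lower (-0.44 ± 0.09, adjusted p = 0.00845, and 0.0637 without 6 h replicate 3), and it overlaps AT3G51238 on the opposite strand. Of the cell type markers fixed for root hairs (8 tested), endodermis (6) and guard cells (9) none was called, and none was at 0 in all 6 libraries. Summed TPM of the root hair markers was 79.2 to 87.8 at 24 h and 62.0 to 72.5 at 6 h, and that of the guard cell markers 370 to 452 at 24 h and 357 to 388 at 6 h. Over the 39 lists 63 of 739 tested genes were called (8.53%, against 1.85% of all tested genes), 30 higher and 33 lower, and 13 lists held no call. The lists were chosen with earlier results of these data known, so that this share is no independent evidence.

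**Figure D4:**
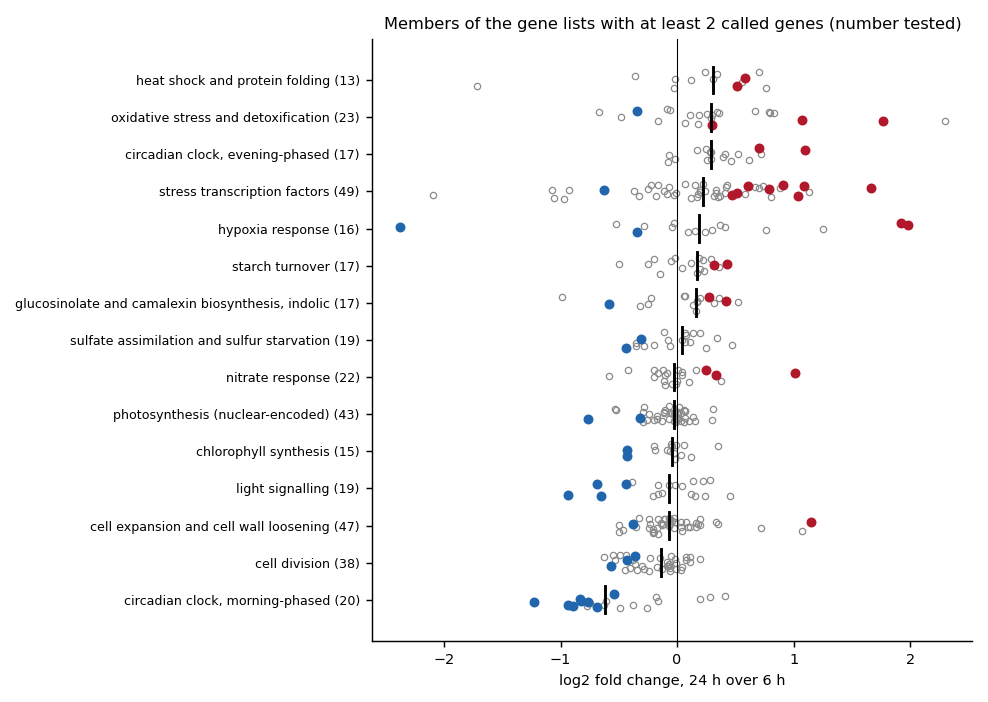
Log2 fold change of 24 h over 6 h for each tested member (points) of the 15 gene lists with at least 2 called genes, with calls filled in red (higher) or blue (lower), other members open, and the list median as a bar. The morning-phased clock list stands furthest to the left with a median of -0.62, and the other 14 medians lie between -0.14 and 0.31.

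Several genes outside the lists rose by more than most list members. AT5G46960, annotated as an inhibitor of invertase or pectin methylesterase, had 3.63, 7.14 and 10.2 TPM at 24 h and was without reads in all 6 h libraries. With 98 reads against 0, and 3 reads over the 6 h libraries as the floor, it was at least 33.7-fold higher (adjusted p = 0.00323, stable), a bound that covers counting error only. GH9B15, a glycosyl hydrolase of family 9, had 3.19, 4.57 and 7.93 TPM at 24 h, against 0.273, 0.874 and 0.536 TPM at 6 h (3.20 ± 0.51, adjusted p = 0.00158, stable). Outside 24 h, AT5G46960 reached the 1 TPM of the filter only in 2 h replicate 1 (1.15 TPM), and GH9B15 only in 2 h replicate 3 (1.18 TPM). Both genes were thus tested mainly through the group in which they were high, and DESeq2 gave AT5G46960 no adjusted p. In the 7 d group both genes were low, at 0 to 0.608 TPM and 0.0878 to 0.674 TPM. Both had their highest values at 24 h among the 5 times.

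A pair of cysteine proteinase genes was also highest at 24 h in the mean. AT4G36880 had 13.2, 31.0 and 46.9 TPM at 24 h, against 2.17, 6.15 and 4.33 TPM at 6 h (2.87 ± 0.48, adjusted p = 0.00281, stable). AT1G29090 had 26.5, 56.8 and 59.8 TPM at 24 h, against 6.35, 13.2 and 13.7 TPM at 6 h (2.13 ± 0.31, adjusted p = 0.000680, stable). In both, replicate 1 was the lowest library of its group at 24 h and at 6 h, and for AT4G36880 a single 2 h library reached 17.1 TPM. Both were lower at 7 d than at 24 h, by -3.95 (adjusted p = 3.37e-05) and -4.39 (adjusted p = 2.81e-07), and among 28 tested genes described as cysteine proteinases they were the 2 called. The share called over all tested genes was 1.85%. AT1G73120, an F-box protein gene, had 54.2, 35.5 and 53.4 TPM at 24 h and 8.12, 13.0 and 12.3 TPM at 6 h (2.09 ± 0.24, adjusted p = 8.66e-05, stable). It too was higher at 24 h than at 0 h (1.71, adjusted p = 1.21e-05).

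The large rise of AT1G59218, a gene of the CC-NBS-LRR disease resistance class, is uncertain. It had 7.05 to 11.5 TPM at 24 h, against 0.612 to 1.99 TPM at 6 h (3.04 ± 0.41, adjusted p = 0.000343). AT1G58848, whose sequence is identical over 94.6% of its length, was called lower at 24 h (-0.53, adjusted p = 0.0232), and the sum of both was 29.8, 24.9 and 24.1 TPM at 24 h, against 27.7, 22.7 and 28.1 TPM at 6 h. The sums overlapped. The same holds for AT3G28290, named after its values were seen, which had the largest fitted rise of the called genes. Its 221 reads at 24 h all lay in replicate 2, against 0 at 6 h, and in that library its identical copy AT3G28300 was at 0. The sum of both was 12.9, 10.3 and 7.12 TPM at 24 h and 4.15, 9.51 and 6.77 TPM at 6 h, which overlapped. In a search that did not cover inverted copies, 5 of the 389 called genes had such a near copy elsewhere and 17 shared most of their span with an overlapping gene.

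Among the largest falls the steadiest was AT1G52060, a gene of the mannose-binding lectin family. It had 21.1, 24.1 and 20.6 TPM at 24 h, against 58.9, 53.6 and 57.7 TPM at 6 h (-1.36 ± 0.12, adjusted p = 3.25e-06, stable). EXLB1, an expansin-like protein, had 7.82, 8.40 and 11.2 TPM at 24 h and 31.8, 21.2 and 26.3 TPM at 6 h (-1.54 ± 0.16, adjusted p = 4.53e-05, stable). EXLB1 had been higher at 6 h than at 0 h (1.09, adjusted p = 2.34e-05), whereas AT1G52060 had been lower (-0.45, adjusted p = 0.00704).

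The subtilase gene AT4G21650 had a course like that of EXLB1, with 2.32, 2.22 and 1.62 TPM at 24 h and 4.56, 4.55 and 6.18 TPM at 6 h (-1.29 ± 0.18, adjusted p = 0.000353, stable). At 0 h it stood at 1.6 to 2.12 TPM. The extensin-like gene AT1G26250, which encodes a proline-rich wall protein, and its antisense partner AT1G26255 fell together, by 2.21 ± 0.29 (adjusted p = 0.000261, stable) and 1.95 ± 0.25 (adjusted p = 0.000246, stable). Their reads cannot be told apart without strand. AT3G04320, annotated as a Kunitz protease inhibitor, fell by 1.38 ± 0.26 (adjusted p = 0.00644, stable).

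A pair of defence-related genes fell as well. AIG1, first described as induced by avirulent bacteria, had 6.74, 8.74 and 6.19 TPM at 24 h, against 21.4, 11.5 and 22.8 TPM at 6 h (-1.33 ± 0.23, adjusted p = 0.00451, stable). BG3, a beta-1,3-glucanase, had 11.8, 16.9 and 14.6 TPM at 24 h and 54.3, 22 and 53.8 TPM at 6 h (-1.56 ± 0.31, adjusted p = 0.00868, and 0.0640 without 6 h replicate 1). In both genes 6 h replicate 2 was the lowest 6 h library. AT5G59330, annotated as a lipid-transfer protein, fell by 1.54 ± 0.31 (adjusted p = 0.0111, and 0.0745 without 24 h replicate 1).

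The falls of 3 late embryogenesis and dehydration genes depended on single libraries. AT3G15670, annotated as a late embryogenesis abundant protein, had 0, 0.494 and 0.662 TPM at 24 h, against 2.83, 20 and 1.16 TPM at 6 h (-4.39 ± 1.1, adjusted p = 0.0401). AT3G02480, of the same annotation, had 1.73, 2.69 and 1.57 TPM at 24 h and 5.13, 59.3 and 8.82 TPM at 6 h (-3.58 ± 0.77, adjusted p = 0.0161). The dehydrin RAB18, the only call among 20 abscisic acid and dehydration genes, had 1.09, 0.625 and 1.57 TPM at 24 h and 7.77, 18.2 and 0.920 TPM at 6 h (-3.08 ± 0.76, adjusted p = 0.0378). In each of them 6 h replicate 2 was the highest library, and without it the adjusted p was 0.370 for AT3G15670, 0.190 for AT3G02480 and 0.257 for RAB18. Other left-out libraries ended the calls too, in 4 of the 6 fits for AT3G15670 and AT3G02480 and in 5 of 6 for RAB18.

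Transcripts of the dry seed were also uneven among the 6 h libraries. The summed TPM of 14 seed storage, oleosin and late embryogenesis genes, a list put together after these values were seen, was 4.58, 3.65 and 3.45 at 24 h, against 94.9, 23.4 and 4.67 at 6 h. The storage globulin gene CRU3 stood at 0.0959, 0.0868 and 0 TPM at 24 h and at 25.8, 0.654 and 0 TPM at 6 h. The late embryogenesis gene EM1 was at 0 in all 24 h libraries and at 0, 4.42 and 0.281 TPM at 6 h. Storage transcripts thus led in 6 h replicate 1 and EM1 in 6 h replicate 2, and neither was raised in 6 h replicate 3. Of the 7 listed genes that were tested, 2 were called, both lower: CRA1 (adjusted p = 0.0449) and PER1 (adjusted p = 0.0387). Without 6 h replicate 2 both fell below the TPM filter and were not tested. PER1 had 0 reads at 24 h and 55 at 6 h. Outside the pair compared, 2 h replicate 2 had a sum of 30.7 TPM and the other 8 seedling libraries stayed at or below 9.38 TPM. The part of these transcripts in the falls named above was not tested.

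**Figure D5:**
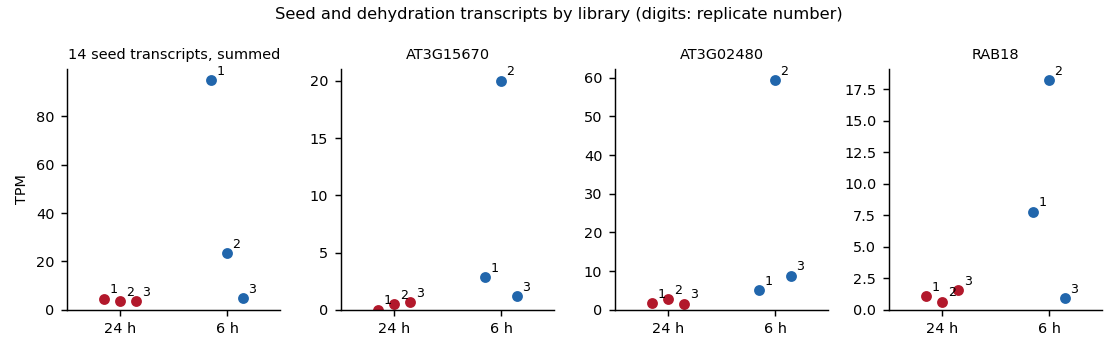
TPM in each 24 h library (red, left) and each 6 h library (blue, right), with replicate numbers, of 14 seed transcripts summed and of AT3G15670, AT3G02480 and RAB18. The 24 h libraries lie together near the axis, and 6 h replicate 1 (seed sum) or 6 h replicate 2 (the other 3 panels) stands far above.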

How the data were processed

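Total RNA of whole seedlings was sequenced, and 1 table per library lists 34262 genes. The authors deposited expected counts (estimated reads per gene) and TPM (reads scaled for gene length and library size), per the file headers. The genome build was TAIR10, per the submitters' processing notes; the quantification program was not given in the sources used here. Expected counts were rounded to whole numbers. A gene was tested where 3 or more seedling libraries reached 1 TPM (21069 genes). Groups were taken from the labels, and a fit over all 15 seedling libraries (edgeR 4.0.16 in R 4.3.3, TMM factors, quasi-likelihood F test, Benjamini-Hochberg adjustment over all genes tested, threshold 0.05) gave log2 fold changes with standard errors (SE). limma 3.58.1 and DESeq2 1.42.0 were alternatives, and Python 3.11.15, pandas 2.3.3 and matplotlib 3.10.9 were used for summaries and plots. A gene with no reads in 1 group was given a bound at a floor of 3 reads over the group.

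Members and gene lists were chosen with earlier results of these data known. Named genes were TPST and PSYR1, 12 called genes each way, by size of the log2 fold change, among those averaging 5 TPM or more in a group and without overlap between groups, up to 4 called members per list with the smallest adjusted p, and any member of the clock lists; other names were chosen after their values were seen. Names, spans and promoters came from RefSeq (TAIR10.1), which matched 32548 genes; the promoter sequence of the clock gene with the largest rise is not reported here. A copy was a gene of at least 95% identity over at least 50% of the span in a single alignment. Only copies in the same orientation on the chromosome were sought, so inverted copies were missed. On simulated counts for 24 h against 6 h (21069 genes, 200 changed), the fit recovered 37.3% of 1.5-fold, 65.7% of 2-fold and 90.9% of 4-fold changes, with 3.73% false calls. No 2 libraries of a group agreed within sampling noise.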

Additional observations from a re-analysis of the deposited data

How the results depend on the processing

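The counts of calls moved with the processing. Of 1303 values of the 77 called named genes under the 17 alternatives, 941 stayed called, 362 were no longer past the threshold and 0 changed sign. Among named genes that were not called, 4 changed sign with 1 library left out: TPST (-0.05 without 6 h replicate 3), PRR7 (0.01 without 24 h replicate 2), LKP2 (0.04 without 6 h replicate 2) and CHE (up to 0.11, without 24 h replicate 1). Genes called higher numbered 245 with DESeq2 and 249 without a filter on low values, against 162; limma on log2(TPM + 1), log2(TPM + 0.1) and log2(TPM + 5) called 35, 38 and 32. Genes called lower numbered 352 without the filter, against 227, and 54, 62 and 49 with limma in the same order. Leaving out 1 library gave 60 to 115 higher and 99 to 223 lower genes. The causes were not tested. With the replicate number as a block 149 genes were higher and 213 lower. Same-numbered libraries did not deviate together (correlations of 0.016, -0.0562 and -0.0612), so the numbers were not treated as pairs. The limma fits called no evening-phased, light-signalling or photosynthesis gene, and the same evening and light lists were also without calls when 6 h replicate 1 or 24 h replicate 2 was left out. The morning-phased list kept 4 to 9 lower calls and a negative median (-0.70 to -0.31) throughout. In counts simulated with the depth, replicate number and spread of these libraries, 37.3% of 1.5-fold changes were recovered. Which of these limited the recovery was not tested.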

Other observations

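The 52 genes called under every alternative included several outside the gene lists, named here after their values were seen. Among those lower at 24 h, the glycerol-3-phosphate transporter gene G3Pp1 had 13.4, 9.02 and 11.8 TPM at 24 h, against 21.2, 19.4 and 21.5 TPM at 6 h (-0.86 ± 0.09, edgeR adjusted p = 6.34e-05). PPCK1, the kinase of phosphoenolpyruvate carboxylase, had 15.6, 15.3 and 14.1 TPM at 24 h and 28.8, 23.1 and 27.6 TPM at 6 h (-0.85 ± 0.13, adjusted p = 0.000995). ABA1, the zeaxanthin epoxidase of abscisic acid synthesis, fell by 0.64 ± 0.08 (adjusted p = 0.000261), and JAC1, a J-domain protein of chloroplast movement, by 0.84 ± 0.11 (adjusted p = 0.000353). The B-box gene STO (-0.43 ± 0.08) and PHO2, which limits phosphate loading (-0.42 ± 0.07), fell by less. The 24 h and 6 h values did not overlap in any of these 6 genes, as in 364 of the 389 called genes. Among all tested genes the share was 14.5%. Since the 6 were picked from the calls, the lack of overlap adds no support.

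Among those higher, the peroxidase gene AT2G37130 had 141, 126 and 119 TPM at 24 h, against 72.7, 72.2 and 68.3 TPM at 6 h (0.87 ± 0.12, adjusted p = 0.000295). AT1G80440, annotated with kelch repeats, had 8.36, 7.28 and 8.37 TPM at 24 h and 1.92, 2.69 and 3.34 TPM at 6 h (1.6 ± 0.24, adjusted p = 0.000935). UGT73B1, a glucosyltransferase, rose by 0.92 ± 0.13 (adjusted p = 0.000777). By annotation, 3 of 5 tested UGT73 genes were higher and none lower (median 0.90), against 0.769% of all tested genes called higher. Of 16 tested chitinase genes 4 were lower and none higher, against 1.08% and 0.769% of all tested genes. The median was -0.38, and 5 of the 16 had positive estimates. The 4 were led by AT2G43620 with 73.7, 89.0 and 76.5 TPM at 24 h, against 199, 132 and 214 TPM at 6 h. Of 21 mannose-binding lectin genes 3 were lower and 1 higher (median 0.20), against the same shares of all tested genes. These families were picked after their values were seen.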
